A study of Mus musculus with 20 samples.

Results

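The design of this study crosses a drug with a disease model, and the question taken up here is where the effect of the drug differed between mice with and without the disease. Pien Tze Huang (PZH) is a traditional Chinese medicine. Azoxymethane (AOM), a carcinogen, followed by cycles of dextran sulfate sodium (DSS), which injures the colon lining, gives a model of colitis-associated colorectal cancer. For every gene the effect of PZH without AOM/DSS (PZH minus Control) was subtracted from the effect of PZH with AOM/DSS (PZH + AOM/DSS minus AOM/DSS), and this difference of differences is called the interaction. A positive interaction means that PZH moved the gene further up, or less far down, in mice with AOM/DSS than in mice without it. All 20 mice of the series entered, 5 per group, and 16936 of the 32991 genes with an annotated transcript had at least 0.5 FPKM in at least 5 mice and were tested. FPKM count the fragments of a transcript, scaled to its length and to the size of the library.

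The mice were male C57BL/6 animals, and each gave 1 library from colon. Control mice received double distilled water by gavage for 91 days, and mice of the PZH group 250 mg/kg/d of PZH over the same period. Mice of the AOM/DSS group, named Model in the labels, received 12.5 mg/kg AOM once and, from day 7, 2% DSS in the drinking water for 5 days in each of 4 cycles, with distilled water by gavage. Mice of the PZH + AOM/DSS group, named Model + PZH, received the same AOM and DSS together with 250 mg/kg/d of PZH. No group carried a transgene or a deleted gene. Each mouse belonged to 1 group only and is given by its number in the labels.

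Several gene programs with known roles in the colon bear on this comparison. Immediate early genes such as Atf3, Fosb, Nr4a1 and the Dusp phosphatases are switched on within minutes by growth factors, stress or handling of the tissue, and their transcripts are short-lived. Atf3 encodes a transcription factor of the ATF/CREB family that is also a target of the integrated stress response, the pathway that slows translation when cells lack amino acids or fold proteins poorly. The Wnt pathway maintains the stem cells at the crypt base, is overactive in most colon tumors, and switches on its own inhibitors, among them Axin2, Nkd1, Notum and Rnf43. Paneth cells secrete α-defensins and belong to the small intestine, and in the colon they are known to appear in inflamed or neoplastic epithelium. Mature colonocytes absorb salt and water through transporters such as Slc26a3 and Aqp8.

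The promoters of 3 genes are shown because they head the programs described below, Atf3 for the immediate early genes, Cxcl2 for the chemokines and Sp5 for the Wnt targets. The promoter of Nr4a1, also an immediate early gene, was searched too, held no match to the motifs and is not shown. The sequences are from RefSeq (GRCm38.p6), 250 bases before the transcript start, read 5′ to 3′ on the strand of the gene. Capitals mark matches to motifs searched on both strands. The Atf3 sequence lies at chr1:191183334-191183583 on the minus strand and holds a match to TGATGNAA, the element bound by ATF4 with C/EBP proteins, which is in 3.97% of all 32851 RefSeq promoter windows of 300 bases. The Cxcl2 sequence, chr5:90903649-90903898 on the plus strand, holds 2 overlapping matches to an NF-κB motif, GGGA and TTCC with 2 bases between them (1.47% of windows). The Sp5 sequence, chr2:70474673-70474922 on the plus strand, holds a match to the TCF motif CTTTGAT (3.73% of windows).
Atf3: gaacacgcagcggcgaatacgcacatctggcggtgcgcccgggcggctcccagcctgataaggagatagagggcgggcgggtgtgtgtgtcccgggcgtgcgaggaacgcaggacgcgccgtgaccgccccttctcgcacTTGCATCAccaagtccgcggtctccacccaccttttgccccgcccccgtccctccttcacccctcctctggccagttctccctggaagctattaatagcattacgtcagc
Cxcl2: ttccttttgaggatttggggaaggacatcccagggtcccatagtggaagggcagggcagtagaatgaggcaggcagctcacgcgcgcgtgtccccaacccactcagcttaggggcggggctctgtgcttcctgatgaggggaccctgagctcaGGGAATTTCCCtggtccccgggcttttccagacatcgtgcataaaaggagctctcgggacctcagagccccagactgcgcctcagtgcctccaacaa
Sp5: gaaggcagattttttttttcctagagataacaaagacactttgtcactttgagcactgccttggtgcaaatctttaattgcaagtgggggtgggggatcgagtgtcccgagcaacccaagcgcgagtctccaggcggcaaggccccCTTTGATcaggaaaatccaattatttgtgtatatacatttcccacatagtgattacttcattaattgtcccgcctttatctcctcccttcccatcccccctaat
Of the 10 immediate early genes with a positive interaction that have a window, 1 held TGATGNAA, which was the Atf3 shown. The cyclic AMP response element TGACGTCA (1.79% of all windows) was in 1, and none held the AP-1 motif TGANTCA (7.81% of all windows). The TCF motif was in 1 of 7 windows of the Wnt feedback genes with a negative interaction, which was the Sp5 shown. The NF-κB motif was in 2 of 4 windows of the CXC chemokine genes with a negative interaction, that of Cxcl2 included. A second form with 1 base in place of 2, GGGANTTCC (1.68% of all windows), was in 0 of 4. A match describes the letters only.

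The libraries were close in depth, since their relative depth, read from the steps of the low FPKM values, lay between 0.908 and 1.152. The labels give colon as the tissue while their extraction text names the abdominal aorta, so the tissue was checked against markers. The 29 colonocyte markers tested averaged between 6.09 and 7.72 as mean log2(FPKM + 1) per mouse, against 4.34 to 6.42 for smooth muscle markers. In that list Car4, a carbonic anhydrase of the colon surface, was at 98.3 FPKM or more in every mouse. Several mice stood apart. Squamous epithelium markers, which belong to the anal canal, averaged 5.34 and 4.96 in Control mice 17 and 50 and between 2.19 and 2.34 in the other 3 Control mice. PZH + AOM/DSS mouse 35 lay within the range of the AOM/DSS mice for Paneth cell, Wnt feedback and neutrophil genes, and its weight in a fit with sample weights was the lowest of all, 0.397. For many lists, counts are given with and without PZH + AOM/DSS mouse 35 or Control mice 17 and 50. A count given with all mice only is not thereby stable. Mouse 35 was singled out by its values for these genes, so what is found without it describes how far 1 mouse decides a count and is no test. At an unadjusted P under 0.05 there were 887 positive and 1821 negative genes of 16814 without it, and 523 and 978 of 16788 without Control mice 17 and 50. List counts without these mice belong beside these numbers, not beside the shares of all genes with all mice kept.

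The interaction had an adjusted P under 0.05 in 2 of the 16936 genes (0.0118%), Atf3 and Zfat. An unadjusted P under 0.05 was found in 1749 genes (10.3%), with 577 positive (3.41%) and 1172 negative (6.92%), and the median over all genes was −0.05 on the log2(FPKM + 1) scale. The count with adjustment turned on 1 mouse. Without PZH + AOM/DSS mouse 35, 476 genes (2.83% of 16814) had an adjusted P under 0.05, 57 positive and 419 negative, and leaving out any other single mouse gave 0 or 1. Without Control mice 17 and 50 there were 0 such genes by limma and 1501 with an unadjusted P under 0.05. The separate effects of PZH in the same fit had an adjusted P under 0.05 in 0 genes without AOM/DSS, where 1381 (8.15%) had an unadjusted P under 0.05, and in 76 genes (0.449%) with AOM/DSS, where 2437 (14.4%) had an unadjusted P under 0.05.

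Where the drug effect sat differed between the directions. Of the 1172 negative genes, PZH had an unadjusted P under 0.05 with AOM/DSS alone in 728 (62.1%), without AOM/DSS alone in 205 (17.5%), in both with opposite signs in 30 and in neither in 209. Of the 577 positive genes, the numbers were 203 (35.2%), 200 (34.7%), 24 and 149, and 1 gene had both effects with the same sign. These counts split the same estimate into its parts and are given as a description. The 54 genes with opposite effects included Atf3, Zfat, Errfi1, Ces1d, Coq10b, Nr4a1, Zfp598, Gstt1, Plk3, Gzf1, Fosb, Ppp1cb, Cyp2c65, Slc12a2 and Pla2g2a.

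**Figure D1:**
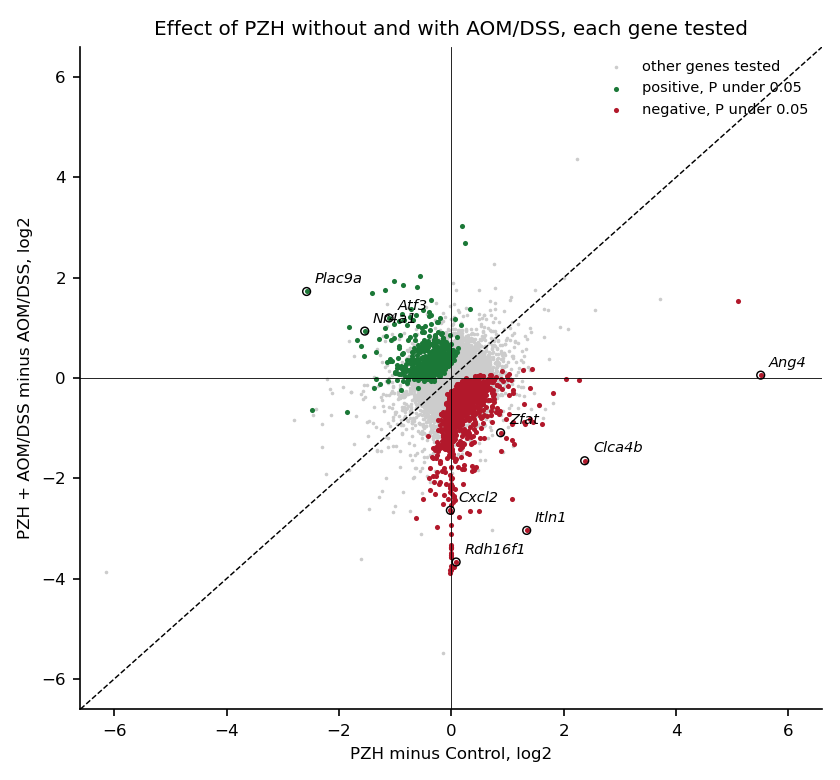
Effect of PZH without AOM/DSS (horizontal axis) and with AOM/DSS (vertical axis) for the 16936 genes tested, as differences of mean log2(FPKM + 1). Green and red points are the 577 positive and 1172 negative interactions with an unadjusted P under 0.05, and on the dashed line both effects are equal. Atf3 and Nr4a1 lie at the upper left, Zfat at the lower right, and the red points that run down at 0 on the horizontal axis are genes such as Cxcl2 and Rdh16f1.

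Atf3 (ENSMUSG00000026628.13, GRCm38 chromosome 1 from 191170296 to 191218039, minus strand) was high in Control and PZH + AOM/DSS mice and low in the other groups. It had 37, 23.7, 26.3, 21.1 and 17.8 FPKM in the Control mice and 7.04, 9.97, 16, 18.1 and 7.01 FPKM in the PZH mice. The AOM/DSS mice had 9.77, 10.1, 15.4, 13.6 and 10.7 FPKM and the PZH + AOM/DSS mice 40.2, 22.2, 33.1, 23.3 and 26.1 FPKM. The lowest PZH + AOM/DSS mouse lay above the highest AOM/DSS mouse, and the Control and PZH groups overlapped by 1 pair of mice. Group means are given below in 1 order, first Control, then PZH, then AOM/DSS, last PZH + AOM/DSS, with the SD over 5 mice. Those of Atf3 were 25.2 ± 7.31, 11.6 ± 5.15, 11.9 ± 2.47 and 29 ± 7.56 FPKM. On the log2 scale the PZH effect was −1.11 without AOM/DSS and 1.20 with it. Two-sided exact permutation gave p = 0.0159 for the first and p = 0.00794, the smallest that 5 mice against 5 allow, for the second. The interaction was 2.3 (standard error 0.35, 95% interval 1.57 to 3.04, limma, adjusted p = 0.0459). Permuting the PZH labels in both arms at once, an exact two-sided test over 63504 arrangements, gave p = 6.3e-05. Its null is that PZH has no effect in either arm, so it is not an exact test of equal effects. This P is not adjusted for the choice of Atf3 among 16936 genes by the same difference, so it describes the gene and adds no independent evidence. Nearly all of the signal was in the protein-coding transcript of 1984 bases, and a second one of 517 bases was above 0 in Control mouse 17 only. The adjusted P is close to the threshold, and over 20 fits that each leave out 1 mouse it ran from 0.00183 to 0.126 with estimates from 2.16 to 2.48. It stayed under 0.05 in 4 of these fits, those without Control mouse 50, PZH mouse 27, PZH mouse 46 or PZH + AOM/DSS mouse 35.

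Some other immediate early genes had a positive interaction too, without an adjusted P under 0.05. Of 41 AP-1, ATF and immediate early genes tested, 11 had a positive interaction (26.8%, against 3.41% of all genes) and 1 a negative one (2.44%, against 6.92%), and the median over the list was 0.26. The list as a whole was not higher with PZH in mice with AOM/DSS, since its median PZH effect was −0.25 without and −0.03 with AOM/DSS. Nr4a1, an orphan nuclear receptor, had 15.9, 19.7, 15.4, 5.69 and 11.4 FPKM in Control mice, 2.08, 4.49, 6.37, 3.75 and 2.86 in PZH mice, 11.6, 6.30, 11, 10.4 and 12.1 in AOM/DSS mice and 25.4, 15, 44.8, 22.9 and 8.11 in PZH + AOM/DSS mice. Only Control mouse 48 fell into the range of the PZH mice, and only PZH + AOM/DSS mouse 36 into that of the AOM/DSS mice. Its interaction was 2.48 (standard error 0.51, adjusted p = 0.257). Fosb, a partner of Jun in the AP-1 complex, had group means of 4.44 ± 3.15, 1.71 ± 0.761, 1.35 ± 0.334 and 4.56 ± 2.14 FPKM, and its interaction was 1.98 (standard error 0.51, adjusted p = 0.35). The remaining 8 positive members were Batf2 (1.06), Klf4 (0.97), Dusp1 (0.93), Dusp6 (0.93), Nr4a3 (0.78), Dusp5 (0.68), Klf6 (0.63) and Mafk (0.37).

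The members of this list did not all move together. Dusp1, a phosphatase that switches off MAP kinases, was at 21.9 ± 7.6 FPKM in Control and 10.5 ± 2.36 in PZH mice, and with AOM/DSS at 19.8 ± 5.2 without and 19.1 ± 3.89 with PZH. For Klf4, a factor of differentiated epithelium, the PZH effect was −0.32 without and 0.65 with AOM/DSS. Dusp4 was the negative member (−1.28), with group means of 3.43, 3.55, 25.1 and 12.2 FPKM. The interactions of Fos (0.89, adjusted p = 0.585 by limma), Egr1 (1.13, adjusted p = 0.64) and Jun (−0.77, adjusted p = 0.537) did not pass at an unadjusted P under 0.05 either. Jun was at 95.6 FPKM in PZH + AOM/DSS mouse 35 and between 25.3 and 35.2 FPKM in the other 4 mice of that group. At an unadjusted P under 0.05, 10 members were positive and 4 negative without mouse 35, and 10 and 3 without Control mice 17 and 50.

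**Figure D2:**
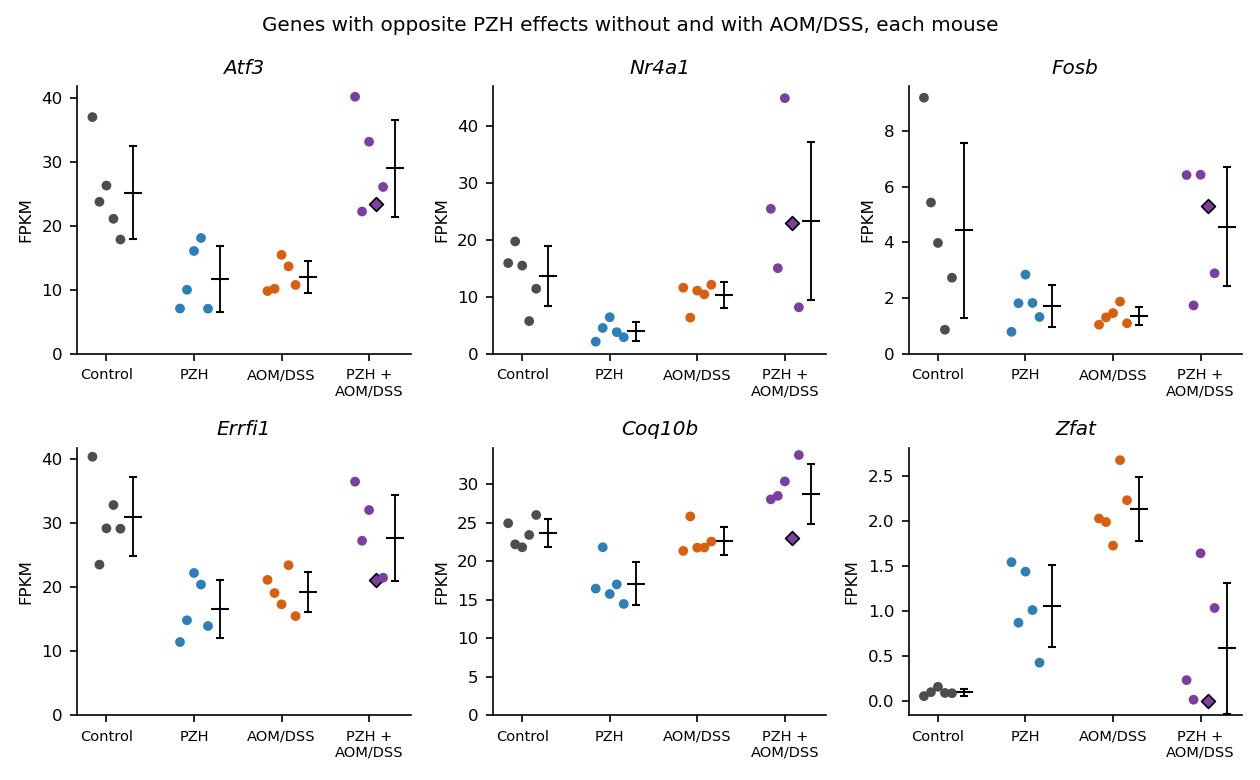
FPKM of 6 genes in each mouse of the 4 groups (points), with the mean and SD of 5 mice (bars), on linear axes. The black-edged diamond is PZH + AOM/DSS mouse 35. Atf3, Nr4a1, Fosb, Errfi1 and Coq10b are lower with PZH in mice without AOM/DSS and higher with PZH in mice with AOM/DSS, and Zfat shows the reverse at levels under 3 FPKM.

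Errfi1, Coq10b, Plk3 and Ppp1cb, outside this list and singled out after their values were seen, had PZH effects of opposite sign in the 2 arms, each with an unadjusted P under 0.05. Errfi1, an inhibitor of the EGF receptor that growth factors induce, had 40.3, 23.5, 29.2, 32.8 and 29.1 FPKM in Control mice and 11.4, 14.8, 22.2, 20.4 and 13.9 in PZH mice, and the groups did not overlap. It had 19.3 ± 3.12 FPKM with AOM/DSS alone and 27.7 ± 6.67 with AOM/DSS and PZH, which overlapped, and its interaction was 1.37 (standard error 0.27, adjusted p = 0.182). Coq10b, a mitochondrial coenzyme Q binding protein, ran from 23.7 ± 1.79 in Control to 17.1 ± 2.81 in PZH mice and from 22.6 ± 1.83 in AOM/DSS to 28.7 ± 3.93 in PZH + AOM/DSS mice (interaction 0.78, standard error 0.16, adjusted p = 0.182). The interactions of Plk3 (1.54), a stress-responsive kinase, and Trib1 (1.05), a pseudokinase also singled out after its values were seen, had adjusted P of 0.331 each. For Trib1 the PZH effect was −0.82 without AOM/DSS, and with AOM/DSS it was 0.23 and did not pass. Ppp1cb, a catalytic subunit of protein phosphatase 1, had 58.0 to 70.2 FPKM in Control and 30.1 to 32.3 in PZH mice, whereas AOM/DSS mice had 63.9, 10.1, 59.3, 31.0 and 27.6 FPKM and PZH + AOM/DSS mice 30.4, 65.1, 77.5, 63.2 and 59.7. Within the AOM/DSS groups its values therefore fell on both sides of the gap that separated Control from PZH mice, and its interaction was 1.81 (adjusted p = 0.35).

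In the stress and growth factor programs few members were called, to be set against 3.41% positive and 6.92% negative of all genes. Of 30 integrated stress response genes tested, Atf3 was the only positive one (3.33%). Slc7a11 (−1.23) and Slc7a5 (−0.69), both amino acid transporters, were negative (6.67%), and the list median was −0.13. Of 20 heat shock genes, 2 were positive (10%, against 3.41% of all genes) and 0 negative. Dnajb1 had an interaction of 0.49 and Hspa1a of 1.08, while Chordc1 (0.86, unadjusted p = 0.064 by limma) did not pass. Of 13 EGF ligands, ErbB receptors and regulators, Errfi1 and the ligand Areg (1.47) were positive (15.4%) and Nrg4 (−0.45, unadjusted p = 0.0553 by limma) did not pass. Of 22 circadian clock genes, 1 was positive (4.55%) and 0 negative. Of 29 p53 target genes, 2 were positive and 2 negative (6.9% each), and without mouse 35 the counts were 1 and 7.

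Zfat (ENSMUSG00000022335.17, GRCm38 chromosome 15 from 68083764 to 68258856, minus strand) encodes a zinc finger protein with AT-hook motifs. It was low throughout. Control mice had 0.0527, 0.0970, 0.157, 0.0881 and 0.0853 FPKM, PZH mice 1.54, 0.869, 1.44, 1.01 and 0.424, AOM/DSS mice 2.03, 1.99, 1.73, 2.68 and 2.23, and PZH + AOM/DSS mice 0.231, 0.0131, 1.64, 0 and 1.03. Every PZH mouse lay above every Control mouse, and every PZH + AOM/DSS mouse lay below every AOM/DSS mouse. The PZH effect was 0.88 without AOM/DSS and −1.09 with it (p = 0.00794 each by two-sided exact permutation), and the interaction was −1.97 (standard error 0.31, 95% interval −2.63 to −1.31, limma, adjusted p = 0.0459). The same exact permutation of both arms gave p = 3.15e-05, the smallest that 63504 arrangements allow, again not adjusted for the choice of the gene among 16936. Here too the null is no PZH effect in either arm and not equal effects. The gene was tested because it passed 0.5 FPKM in mice of the groups where it was higher.

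The Zfat values came from 2 transcripts that took turns between mice of 1 group. In AOM/DSS mice, the transcript of 4388 bases was at 1.997, 0.522, 1.719, 2.15 and 0.43 FPKM and that of 3866 bases at 0.008, 1.461, 0.003, 0.495 and 1.74 FPKM. In PZH mice the longer one was at 1.105 FPKM in mouse 8 and at 0 in mice 14 and 27, which had 0.808 and 1.284 FPKM of the shorter one. Tested singly over 52341 transcripts, the interaction was −1.16 for the shorter (adjusted p = 0.577) and −1.11 for the longer (adjusted p = 0.581). Over the fits that leave out 1 mouse the estimate for the gene ran from −2.18 to −1.83 and the adjusted P from 0.00224 to 0.141, staying under 0.05 in 3 of 20, those without PZH mouse 53, PZH + AOM/DSS mouse 15 or PZH + AOM/DSS mouse 35. Zfp598, a zinc finger ubiquitin ligase that acts at stalled ribosomes and was singled out after its values were seen, had a like shape at higher levels, with group means of 3.41 ± 1.28, 8.25 ± 2.0, 9.36 ± 1.94 and 5.19 ± 3.73 FPKM (interaction −2.0, standard error 0.44, adjusted p = 0.314).

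Of the 10 genes with the most negative interaction among those with an unadjusted P under 0.01 and at least 5 FPKM in the highest group, 5 were α-defensin genes or a neighbouring predicted gene on chromosome 8. These were Defa36 (−3.83), Defa37 (−3.75), Defa34 (−3.39), Defa5 (−3.39) and Gm7849 (−2.66), all listed at 0 in every Control and every PZH mouse. These paralogs are alike in sequence, so reads may have been shared among them. The other 5 were Ang4 (−5.45), Itln1 (−4.38), Rdh16f1 (−3.75), Spp1 (−2.91) and Cxcl2 (−2.62), and the lowest adjusted P of the 10 was 0.331, for Rdh16f1. Rdh16f1, a retinol dehydrogenase family member, was at 0 in the 5 Control mice and in 4 PZH mice, had 20.1, 14.6, 16.4, 44.1 and 31.8 FPKM in AOM/DSS mice, and was listed at 0 in 4 of 5 PZH + AOM/DSS mice and at 24.8 FPKM in mouse 35. Mouse 35 was thus the only mouse of its group with a signal, and the interaction of Rdh16f1 had an adjusted P of 0.331. Spp1, osteopontin, had 26.8 ± 17.9 FPKM with AOM/DSS alone and 5.52 ± 8.74 with AOM/DSS and PZH and less than 1 FPKM in every mouse without AOM/DSS.

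Paneth cell markers had the largest shift of the 49 lists. Of 19 tested, 15 had a negative interaction (78.9%, against 6.92% of all genes) and 0 a positive one, with a median of −3.38. Most of these markers are α-defensins at or near 0 in every mouse without AOM/DSS, which passed the filter on low values only through the groups where they were high, so the count describes them and is no support. For these the interaction came from the AOM/DSS arm, and the median PZH effect over the list was −3.11 there. Ang4, Pla2g2a and Itln1 were not near 0 in every mouse without AOM/DSS and are described by their own values. Defa24 was at 622, 239, 391, 886 and 1218 FPKM in AOM/DSS mice and at 10.4, 3.01, 149, 1070 and 17.6 FPKM in PZH + AOM/DSS mice. Itln1, an intestinal lectin, was at 176, 109, 119, 266 and 368 FPKM in AOM/DSS mice and at 5.50, 3.61, 79.2, 273 and 8.29 FPKM in PZH + AOM/DSS mice. In both genes mouse 35 lay among the AOM/DSS mice, whereas its 4 group mates were below every AOM/DSS mouse. In bulk tissue fewer cells of a type and less RNA per cell cannot be told apart.

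2 secreted antimicrobial proteins differed from the defensins because their PZH effect lay in mice without the disease, where it did not pass adjustment. Ang4, an angiogenin that is both a Paneth and a goblet cell marker here, had 0.517, 3.61, 52.8, 4.11 and 0.745 FPKM in Control mice and 4.63, 1159, 142, 335 and 2095 FPKM in PZH mice. It had 161 ± 49 FPKM with AOM/DSS alone and 267 ± 299 FPKM with AOM/DSS and PZH. The PZH effect was 5.51 without and 0.06 with AOM/DSS, and only PZH mouse 8 overlapped the Control mice. Retnlb, a goblet cell protein singled out after its values were seen, went from 0.615, 3.94, 6.44, 2.51 and 0.675 FPKM in Control to 5.07, 171, 102, 293 and 538 FPKM in PZH mice, with PZH effects of 5.11 without and 1.54 with AOM/DSS (interaction −3.57, standard error 1.47, adjusted p = 0.422). Pla2g2a, a secreted phospholipase, was at 6.19 ± 4.03 FPKM in Control and 13.3 ± 6.86 FPKM in PZH mice and was at 152 ± 31.7 with AOM/DSS alone and 76.5 ± 55.9 with AOM/DSS and PZH (interaction −2.31, adjusted p = 0.35). Ang4 and Retnlb were the 2 negative members of the 19 goblet cell markers (10.5%, against 6.92% of all genes), and no marker was positive.

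**Figure D3:**
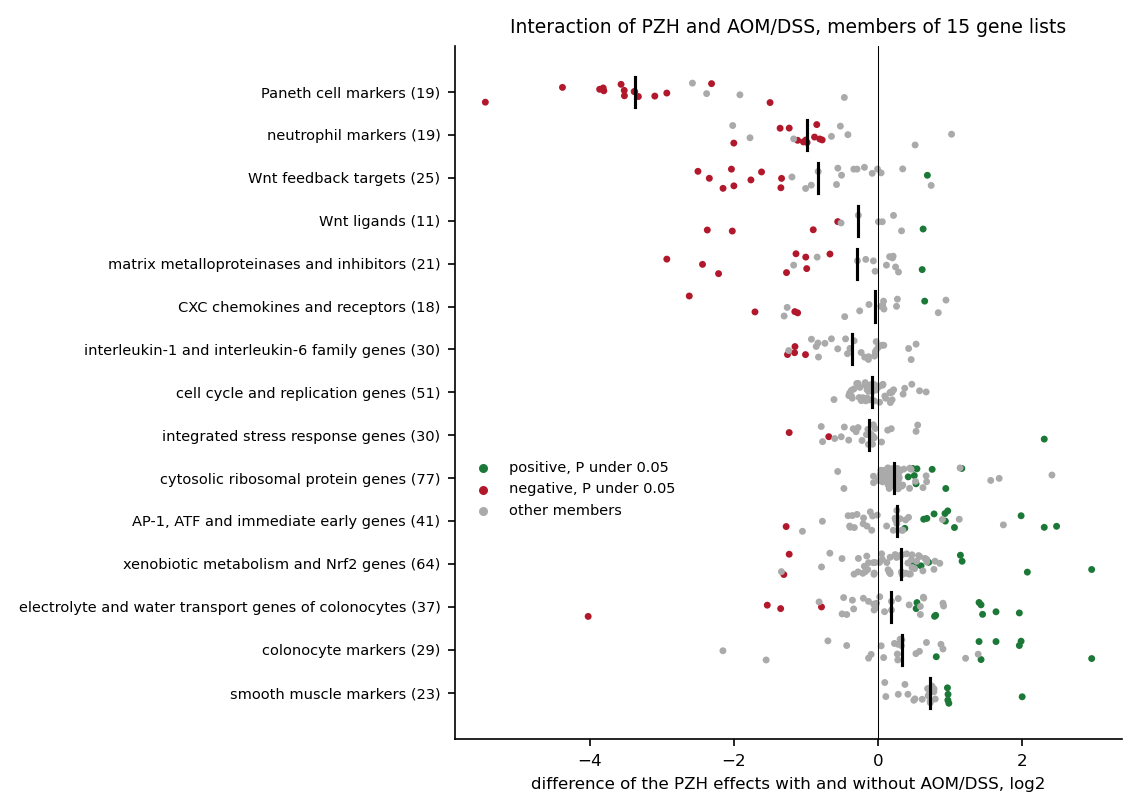
Interaction of each tested member of 15 gene lists (points, number of genes in brackets) on the log2(FPKM + 1) scale, with the list median as a bar. Green and red points have an unadjusted P under 0.05. Paneth cell, neutrophil and Wnt feedback members lie mostly to the left of 0, smooth muscle members to the right of it, and no cell cycle member is colored.

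Wnt feedback targets had 9 negative members and 1 positive member among 25 tested (36% and 4%, against 6.92% and 3.41% of all genes). The median was −0.83, and 21 of the 25 estimates were below 0. With 0.5 FPKM required in every mouse, 14 of these genes remained, with a median of −0.46. Members near 0 without AOM/DSS, such as Sp5, can show a PZH effect only with it, so the count describes the list and is no support. Their median response to AOM/DSS was 1.33 without PZH and 0.70 with it. Sp5, a transcription factor that Wnt signals switch on directly, was at 0.175 FPKM or less in every Control mouse and at most 0.176 in PZH mice. It had 16.3, 18.5, 16.8, 30.3 and 24.6 FPKM in AOM/DSS mice and 1.13, 0.246, 4.22, 21.2 and 2.71 FPKM in PZH + AOM/DSS mice, where mouse 35 alone reached the AOM/DSS range. Its interaction was −2.34 (standard error 0.68, adjusted p = 0.35). The other negative members were the secreted inhibitors Wif1 (−2.50), Apcdd1 (−2.15), Notum (−2.0) and Dkk2 (−1.62), the intracellular inhibitors Nkd1 (−2.04) and Axin2 (−1.35), the ubiquitin ligase Rnf43 (−1.34), which removes Frizzled receptors, and the stem cell receptor Lgr5 (−1.77). Nkd2 was positive (0.68).

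Among 11 Wnt ligands, 4 were negative (36.4%, against 6.92% of all genes) and 1 positive (9.09%, against 3.41%). Wnt6 (−2.37), Wnt10a (−2.02), Wnt16 (−0.90) and Wnt3 (−0.56) were below 1 FPKM on average without AOM/DSS. The count of negative ligands therefore describes the list and is no support. Wnt4 (0.62) was at 2.07 FPKM in Control and 1.26 in AOM/DSS mice. Wif1, Axin2, Nkd1, Notum, Dkk2, Wnt3, Wnt6, Wnt10a and Wnt16 are among 13 Wnt genes that the study had chosen on these mice, so their direction is no independent evidence. Of 17 crypt base stem cell genes, 4 were negative (23.5%), Smoc2 (−1.51), Rnf43, Lgr5 and Axin2, of which the last 3 are also in the feedback list. Notch genes had 1 positive and 4 negative members of 20 (5% and 20%), led by the ligand Dll1 (0.69) and followed by Lfng (−0.62) and the receptor Notch1 (−0.69). Cell cycle and replication genes had 0 called members of 51 by limma at an unadjusted P under 0.05, with a median of −0.08. Without mouse 35, 15 of the 25 feedback genes and 6 of the 11 ligands were negative at an unadjusted P under 0.05. So were 8 of the 17 crypt base genes and 1 of the 51 cell cycle genes. Over all genes the negative count rose too, from 1172 of 16936 to 1821 of 16814 without mouse 35. Without Control mice 17 and 50 the median of the feedback list was −0.58, with 8 negative members, and 1 Notch gene was negative.

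Neutrophil markers were also shifted down, with 11 negative and 0 positive members among 19 and a median of −0.99. The negative share was 57.9%, against 6.92% of all genes. With 0.5 FPKM required in every mouse, 3 of these markers remained, with a median of −0.42. A marker near 0 without AOM/DSS can show a PZH effect only with it, so the count describes the list and is no support. The 3 with the smallest P were Trem3 (−0.88), Cxcr2 (−1.12), the receptor for CXC chemokines, and Fpr2 (−1.04), a receptor for bacterial peptides. They were low throughout, and Cxcr2 ran from 2.78 to 4.24 FPKM in AOM/DSS mice and from 0.245 to 3.27 in PZH + AOM/DSS mice. Retnlg (−2.0) was the most abundant of those called apart from Cd177, with 24.9 FPKM with AOM/DSS alone and 6.81 with AOM/DSS and PZH. Macrophage and dendritic cell markers had 3 positive and 1 negative members of 25 (12% and 4%, against 3.41% and 6.92% of all genes). T and NK cell markers had 1 negative of 26 (3.85%), and B cell markers 0 called of 32 by limma.

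In the chemokine and cytokine lists the share of negative members ran from 8.33% to 22.2%, against 6.92% of all genes. A member near 0 without AOM/DSS can show a PZH effect only with it. Cxcl2, for example, averaged 0.065 FPKM in Control and 0.054 FPKM in PZH mice. The counts therefore describe these lists and are no support. Of 18 CXC chemokines and receptors, 4 were negative (22.2%), Cxcl2, Cxcr2, Cxcl3 (−1.71) and Cxcl14 (−1.16), and Pf4 was positive (0.65). Cxcl2, a neutrophil attractant, had 32.0, 22.1, 11, 45.4 and 27.8 FPKM in AOM/DSS mice and 0.959, 0.516, 3.88, 17.4 and 3.94 FPKM in PZH + AOM/DSS mice, where mouse 35 was the only one above the lowest AOM/DSS mouse. Of 27 CC chemokines and receptors, 3 were negative (11.1%), Ccl4 (−0.92), Ccl3 (−1.0) and Ccr9 (−0.35). Of 30 interleukin-1 and interleukin-6 family genes, 4 were negative (13.3%), Osm (−1.26), Tnf (−1.01), Il1a (−1.15) and Il1f9 (−1.16). Of 24 genes of the interleukin-17, interleukin-22 and interleukin-23 axis, 2 were negative (8.33%), Il23a (−1.70, standard error 0.41) and the siderophore-binding protein Lcn2 (−2.41), and Reg4 (−1.22, unadjusted p = 0.0633 by limma) did not pass. Il23a, a subunit of interleukin-23, had 5.75, 3.26, 3.14, 8.24 and 7.32 FPKM in AOM/DSS and 0.289, 0.253, 1.58, 3.62 and 0.738 FPKM in PZH + AOM/DSS mice. Without mouse 35, 5 CC genes and 11 of the interleukin-1 and interleukin-6 family were negative at an unadjusted P under 0.05. Without Control mice 17 and 50, 4 of 23 genes of the interleukin-17 axis were negative. Over all genes, 1821 of 16814 were negative without mouse 35 and 978 of 16788 without these Control mice. Interferon response and MHC class I genes had 1 positive of 49 (2.04%, against 3.41% of all genes), and 4 without mouse 35, and MHC class II genes 0 of 13 by limma.

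Matrix metalloproteinases and their inhibitors had 8 negative and 1 positive members among 21 (38.1% and 4.76%, against 6.92% and 3.41% of all genes). Their median was −0.287 and moved to −0.042 when 0.5 FPKM was required in every mouse, which left 13 genes. Members near 0 without AOM/DSS can show a PZH effect only with it, so this count too is a description and no support. Mmp14, which anchors to the membrane and cleaves collagen, was well expressed in all groups, with 29.5 ± 5.37, 36.7 ± 3.53, 92.9 ± 14.2 and 55.8 ± 27.6 FPKM over the 4 groups, and its interaction was −1.14 (standard error 0.29, adjusted p = 0.35). In PZH + AOM/DSS mice it was at 104 FPKM in mouse 35 and between 35.5 and 50.8 in the others, all below the lowest AOM/DSS mouse at 79.0. Mmp7 (−2.93), Mmp10 (−2.44), Mmp13 (−2.21), Mmp12 (−1.27), Mmp8 (−1.0), Timp1 (−0.99) and Mmp15 (−0.67) were the other negative members, and the inhibitor Reck was positive (0.61). Mmp7 is also a Paneth cell marker and Mmp8 a neutrophil marker in the lists used here. Ifitm2, an interferon-induced membrane protein singled out after its values were seen, differed from these genes in that mouse 35 did not stand apart. It had 414, 290, 288, 422 and 459 FPKM in AOM/DSS mice and 193, 197, 205, 202 and 186 FPKM in PZH + AOM/DSS mice, with 189 ± 30.4 in Control and 170 ± 13.9 in PZH mice (interaction −0.76, standard error 0.18, adjusted p = 0.331).

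**Figure D4:**
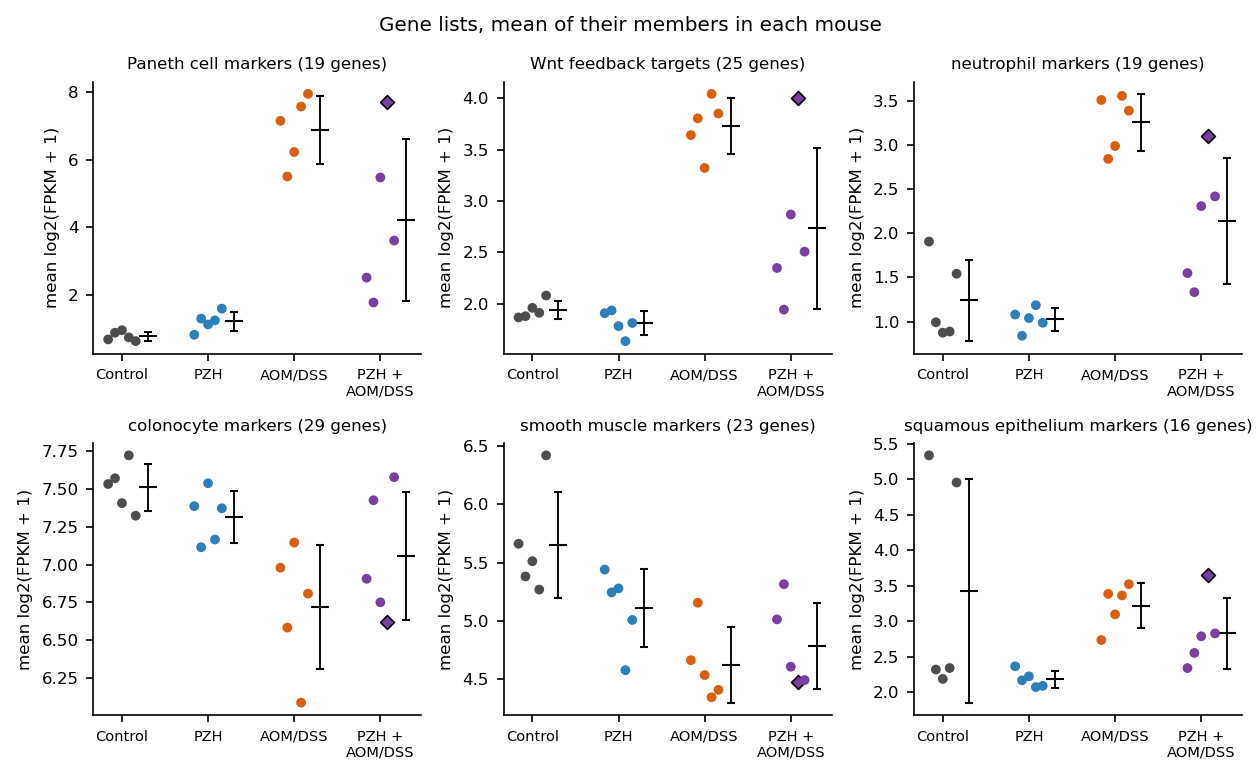
Mean log2(FPKM + 1) over the tested members of 6 gene lists in each mouse (points), with the mean and SD of 5 mice (bars). The black-edged diamond is PZH + AOM/DSS mouse 35, which lies among the AOM/DSS mice for Paneth cell, Wnt feedback and neutrophil genes. Control mice 17 and 50 are the 2 high points of the squamous list.

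On the positive side, the 10 genes with the largest interaction under the same limits were Plac9a (4.30), Gzf1 (2.93), Mettl7a1 (2.72), Nr4a1, Atf3, Frk (2.24), Gm5526 (2.19), Pcnx (2.09), Cyp2c65 (2.07) and 2310079G19Rik (1.98). Plac9a was listed at 0 in 4 PZH mice, 2 AOM/DSS mice and 1 mouse of each other group, so its estimate rests on presence or absence. Frk, an epithelial tyrosine kinase, was at 13.5 ± 4.23, 3.87 ± 1.80, 7.62 ± 3.77 and 11.4 ± 2.71 FPKM over the 4 groups. All 5 PZH mice lay below all 5 Control mice for Frk, and its adjusted P was 0.271. Gzf1 overlapped between the Control and PZH groups and had at least 1.39 FPKM in PZH + AOM/DSS and at most 1.99 FPKM in AOM/DSS mice.

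Some genes of absorption by the colonocyte had a positive interaction. Of 37 electrolyte and water transport genes tested, 9 were positive (24.3%, against 3.41% of all genes) and 4 negative (10.8%, against 6.92%). Without mouse 35 these were 15 and 4, and without Control mice 17 and 50, 8 and 2. Over all genes, 887 were positive and 1821 negative of 16814 without mouse 35, and 523 and 978 of 16788 without these Control mice. Car1, a carbonic anhydrase, had group means of 793 ± 318, 457 ± 97.1, 181 ± 92.8 and 409 ± 181 FPKM. Control mice 17 and 50 held 1135 and 1145 FPKM and the other 3 Control mice 529 to 588, against 311 to 583 in PZH mice, and without these 2 the interaction was 1.55. Its interaction was 1.96 (standard error 0.54, adjusted p = 0.35). Slc26a3, the chloride and bicarbonate exchanger, had 66.4, 91.8, 126, 38.4 and 74.9 FPKM in AOM/DSS mice and 158, 262, 184, 70.3 and 323 FPKM in PZH + AOM/DSS mice, and mouse 35 was again the one that overlapped (interaction 1.64, standard error 0.47). Aqp8 (1.43), a water channel, Car4 (1.40), Clca4a (1.45), Car2 (0.80), Slc9a3r1 (0.78), Slc16a1 (0.54) and Car13 (0.53) were the other positive members. The negative ones were Slc12a2 (−0.79), the secretory sodium-potassium-chloride cotransporter, Scnn1b (−1.54), Best2 (−1.35) and Clca4b (−4.02). Clca4b varied widely within groups, from 1.64 to 176 FPKM in PZH mice.

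Of 29 colonocyte markers, 7 were positive (24.1%, against 3.41% of all genes) and 0 negative, with a median of 0.33. Of these 7, 4 are also transport genes, Car1, Slc26a3, Aqp8 and Car4. Of 64 xenobiotic metabolism genes, 8 were positive (12.5%) and 2 negative (3.12%, against 6.92% of all genes). They were led by Gstt1 (1.16, standard error 0.27), a glutathione transferase, Cyp2c65 and Slc7a11 (−1.23). Without mouse 35 the counts were 14 and 4, and without Control mice 17 and 50, 7 and 5, where Cyp2c65 had an interaction of 1.49 and 2310079G19Rik, also a colonocyte marker, of 1.44. Gstt1 had 46.8 ± 6.78, 34.6 ± 3.15, 12.2 ± 2.74 and 21.7 ± 7.75 FPKM over the 4 groups, and all PZH mice lay below all Control mice. Ces1d, a carboxylesterase singled out after its values were seen, ran in the same order, with 18.8 ± 3.03, 13.1 ± 1.21, 4.32 ± 1.51 and 7.88 ± 1.67 FPKM (interaction 1.24, standard error 0.25, adjusted p = 0.182). Fatty acid oxidation genes had 2 positive of 44 (4.55%) and respiratory chain genes 2 positive of 62 (3.23%), near the 3.41% of all genes. Without mouse 35 the positive counts were 7 and 5, and without Control mice 17 and 50, 1 and 5. Over all genes, 887 of 16814 were positive without mouse 35 and 523 of 16788 without these Control mice. The xenobiotic counts without these mice belong beside the same all-gene counts, with 1821 and 978 negative.

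Smooth muscle markers had 5 positive (21.7%, against 3.41% of all genes) and 0 negative members among 23, with a median of 0.72, and all 23 estimates were above 0. Casq2 (0.97), Acta2 (0.96) and Myl9 (0.98) had the smallest P. Acta2, smooth muscle actin, was at 746 ± 292, 451 ± 84.3, 287 ± 68.7 and 355 ± 106 FPKM over the 4 groups, and Control mouse 50 held 1254 FPKM. Without Control mice 17 and 50 the list median was 0.45 and 2 of 22 members were positive, and without mouse 35, 10 of 22. Over all genes, 523 of 16788 and 887 of 16814 were positive in these fits, in the same order. Fibroblast markers had 6 positive members of 24 (25%), led by Lum (1.13), Dpt (1.03) and Cd34 (0.55), and 1 negative member (4.17%, against 6.92% of all genes). Without Control mice 17 and 50 there were 2 and 1 of 24. Squamous markers had a median of 0.91 with all mice and of −0.44 without them. The part of muscle, connective tissue or anal canal in the samples was not tested.

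Genes of protein synthesis split. Of 77 cytosolic ribosomal protein genes, 8 were positive (10.4%, against 3.41% of all genes) and 0 negative. Above 0 were 73 estimates, with Rpl37a (0.75), Rpl27 (0.54) and Rps27 (0.94) the first by P. Rpl37a was at 695 ± 210, 476 ± 68.0, 416 ± 44.5 and 495 ± 68.8 FPKM over the 4 groups. Of 32 endoplasmic reticulum folding genes, 0 were positive and 5 negative (15.6%, against 6.92% of all genes), led by Selenos (−0.44), Pdia3 (−0.41) and Pdia6 (−0.55). Without Control mice 17 and 50 the count was 1 positive and 1 negative. Pdia3, a protein disulfide isomerase, was at 202 ± 28.8, 249 ± 25.6, 287 ± 43.4 and 266 ± 34.8 FPKM over the 4 groups.

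The same interaction can be read as the response to AOM/DSS without PZH (AOM/DSS minus Control) against the response with PZH (PZH + AOM/DSS minus PZH), which share no mice. An adjusted P under 0.05 was found in 4282 genes (25.3%) for the first and in 1043 genes (6.16%) for the second, and the medians over all genes were 0.09 and 0.05. The median response of Paneth cell markers was 6.95 without PZH and 3.11 with it, that of neutrophil markers 1.66 and 0.82, and that of crypt base stem cell genes 0.90 and 0.44. The median of smooth muscle markers was −1.03 without PZH and −0.27 with it. CXC chemokines as a whole list had like medians, 1.08 and 0.99, although Cxcl2 and Cxcl3 were negative, and interferon response genes had 0.66 in both. The AP-1, ATF and immediate early genes had a median response of 0.08 without PZH and 0.49 with it. Since the lists were chosen with earlier results of these data known, these medians describe the lists and are no test of them.

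**Figure D5:**
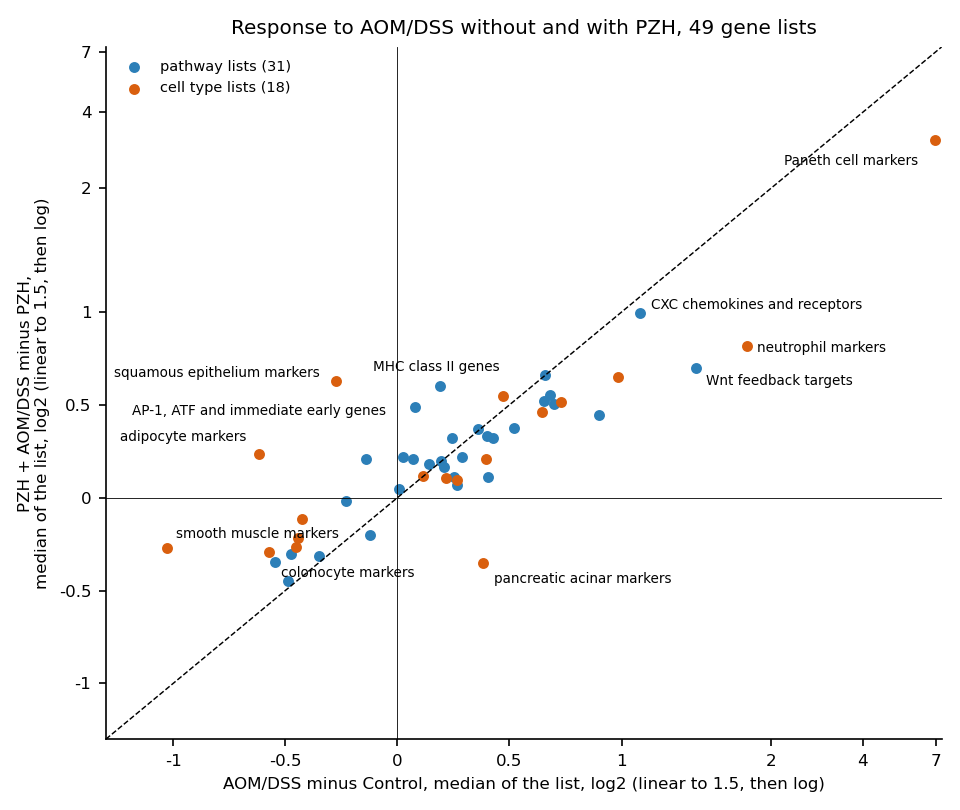
Median response to AOM/DSS of 49 gene lists in mice without PZH (horizontal axis) and with PZH (vertical axis), as differences of mean log2(FPKM + 1). Both axes are linear up to 1.5 and logarithmic beyond, and the dashed line marks equal responses. Paneth cell, neutrophil and Wnt feedback lists lie below the line, and smooth muscle, squamous and immediate early lists above it.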

How the data were processed

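RNA-seq values of 20 colon libraries, 5 per group, were used as deposited. The authors removed ribosomal RNA, filtered the reads, used HISAT2 for alignment to mm10 and StringTie for quantification, and the deposited values were FPKM per transcript, without counts. FPKM were summed here over the 96032 transcripts that GENCODE M21 (GRCm38) assigns to 32991 genes. The 22252 transcripts assembled from the reads, which held 12.1 to 14.8% of the FPKM of a mouse, and 150 others were left out, so a fragment given to an assembled transcript is missing from its gene. Values per transcript depend on how StringTie divides reads among overlapping transcripts.

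Genes that reached 0.5 FPKM in 5 or more of the 20 mice were compared as log2(FPKM + 1) with limma 3.58.1 in R 4.3.3 (1 mean per group, variance trend, no covariates, Benjamini-Hochberg adjustment over all 16936 genes). The scale understates changes of low genes. Each mouse is taken as a replicate. The study gives no test of the interaction and no sequencing batch. Atf3 and Zfat were also tested by exact permutation of the PZH labels, whose null is no PZH effect in the arms permuted. Depth was available only relative to other mice, which limits what can be said of values under 1 FPKM. In simulated data with 200 of 16936 genes given an interaction of 2 on the log2 scale, 172 (86%) were found at an adjusted P under 0.05, none in the wrong direction, and 4 others were called. The changed genes were drawn from well expressed ones, and the noise was normal with the same spread in all groups. In the data the spread could differ, with an SD of the Wnt feedback list of 0.783 in PZH + AOM/DSS and 0.087 in Control mice. The share found therefore does not carry over to low genes or to genes that vary in 1 group.

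The 49 lists (1410 of 1421 symbols found) and the genes were chosen with earlier results of these data known. Named were Atf3 and Zfat, the genes past the adjusted threshold, the 10 most negative and 10 most positive with P under 0.01 and at least 5 FPKM in the highest group, and the 3 smallest P of each list described. Other members past the threshold are given by their estimate, and further genes are said to have been singled out. Lists mentioned by counts only name no members. Alternatives were another scaling, filter, pseudocount or variance model, sample weights, single transcripts and leaving out mice.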

Additional observations from a re-analysis of the deposited data

Results flagged for a closer look

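The effect of PZH differed between mice with and without AOM/DSS by the adjusted interaction test for Atf3 (2.3) and Zfat (−1.97), as described above. Among single transcripts it did so for 1 transcript of Arhgef16 alone (−2.88, standard error 0.28, limma over 52341 transcripts, adjusted p = 0.00022). This transcript was at 0.122 FPKM or less in all 5 Control mice, at 5.62 to 10.9 FPKM in PZH mice, at 7.9 to 12.3 in AOM/DSS mice and at 7.88 to 16.6 in PZH + AOM/DSS mice. Its difference therefore lies between the Control mice and the other 15. Summed over its transcripts Arhgef16 had group means of 37.9 ± 4.26, 52 ± 4.03, 45.9 ± 4.98 and 54.1 ± 5.53 FPKM in the order used above, with an interaction of −0.22 (adjusted p = 0.62 by limma).

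Single mice far from the rest of their group were looked for in 420 group values (95 genes and 10 list means in 4 groups). The mark was a gap to the nearest mouse of more than 0.71 of the range on the log2(FPKM + 1) scale. There were 25, and 1 in 20 of the 420 would be 21. That number is too high as a chance level, since groups at 0 in every mouse are among the 420 and cannot show a gap. Of these, 8 were PZH + AOM/DSS mouse 35, which was highest for Rdh16f1 (24.8 FPKM), Rnf43 (41.3), Lfng (22.1), Jun (95.6), Axin2 (55.7) and Nrg4 (1.41) and lowest for Plac9a (0) and Arhgef16 (44.6). Mouse 13 of the same group was lowest for Gzf1 (1.39 FPKM) and Clca4b (0.708) and highest for Cd34 (20.9), mouse 2 lowest for Ppp1cb (30.4) and mouse 15 highest for Areg (36.7). In the AOM/DSS group these were mouse 30 for Nr4a1 (6.30) and Coq10b (25.8) and mouse 44 for Ccl4 (3.51). In the PZH group they were mouse 53 for Rdh16f1 (0.354), Spp1 (0.867) and Defa24 (0.156), mouse 27 for Plac9a (7.62), mouse 8 for Pdia6 (76.5) and mouse 46 for Zfp598 (4.76). In the Control group they were mouse 17 for Cxcr2 (0.381) and Mmp8 (0.0252) and mouse 50 for Dpt (99.2).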

How the results depend on the processing

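The 2 calls rest on a narrow margin. With all mice kept, 2 genes also passed after median-of-ratios scaling, robust variance and no variance trend. Without a filter 0 of 32991 genes passed (884 positive at an unadjusted P under 0.05, 1654 negative), with 0.5 FPKM required in all mice 1 did (761 negative), since Zfat was not tested, with a pseudocount of 0.1 it was 0, and with sample weights 130. Atf3 was 2.305 without a filter (adjusted p = 0.068), 2.435 with the pseudocount of 0.1 (adjusted p = 0.0553) and 2.3 for its coding transcript (adjusted p = 0.0763), and Zfat −1.969 (adjusted p = 0.0966), −5.033 (adjusted p = 0.11) and −1.161 or −1.109 by transcript. Single transcripts gave 1 call and 3796 with an unadjusted P under 0.05, 1469 positive and 2327 negative. Without Control mice 17 and 50, an alternative chosen after seeing the data, there were 0 calls, with Atf3 at 2.257 (adjusted p = 0.0548) and Zfat at −1.945 (adjusted p = 0.163). Leaving out each mouse in turn gave 0 to 476 calls, 1318 to 2708 genes with an unadjusted P under 0.05, 427 to 887 positive and 884 to 1821 negative. Atf3 then ran from 2.16 to 2.478 and Zfat from −2.182 to −1.832. The cause of these changes was not tested. Median-of-ratios scaling gave 739 positive and 1035 negative genes at an unadjusted P under 0.05 (41.7% positive, against 33%). With 0.5 FPKM in all mice the median of the Wnt feedback list was −0.458 (14 genes) and that of the metalloproteinase list −0.042 (13 genes). The median of the neutrophil list was −0.42 with 0.5 FPKM in all mice, where 3 of its genes remained, and −1.583 with the pseudocount of 0.1. The median of the transport list ran from −0.061 to 0.423 over all settings and changed sign in 2 of 28, and that of the fibroblast list in 1. The 93 other named genes kept their direction in all 28 settings that tested them. They were named by their interaction in these same mice or after their values were seen, and the settings share most mice. A kept direction was therefore likely from the start and is no independent evidence. No paired analysis was possible because no mouse number is shared between groups.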
